A study of Rattus norvegicus with 10 samples.

Results

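The RNA of 10 genes of eicosanoid formation and inactivation was followed in rat kidney across 5 diet groups: the phospholipases Pla2g2a and Pla2g4a, the cyclooxygenases Ptgs1 and Ptgs2, the prostaglandin synthases Ptges and Ptgds, the prostaglandin dehydrogenase Hpgd, the leukotriene genes Alox5 and Alox5ap, and the epoxide hydrolase Ephx2. They were taken by symbol from the annotated expression table, and all 10 were found among 14506 named genes, each on 1 of the 29214 probe sets. The study fed male weanling Wistar rats for 6 days and measured kidney RNA on expression arrays, with 10 arrays in all. Choline deficiency in young rats is a classical way to injure the kidney, and the title of the study names protection by fish oil as its subject. The deficient fish oil group lacked choline and received menhaden oil. The supplemented fish oil group received menhaden oil with choline. The other 3 groups received corn oil, with hydrogenated oil also named in the protocol. The necrotic group and the deficient corn oil group both lacked choline, and the source labels set the necrotic group apart by that word. The sample titles also carry different codes for these groups. The supplemented corn oil group received choline. How kidneys came to be called necrotic is not given in the sources used here. Each group had 2 arrays, each array held a pool of 3 animals, and all groups shared the strain, sex, age class and feeding time. The spread between arrays is therefore a spread between pools.

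Eicosanoids are local lipid signals made from arachidonate and related fatty acids that phospholipases A2 release from membranes. Cyclooxygenases turn arachidonate into the precursor of the prostaglandins and thromboxane, 5-lipoxygenase with its activating protein turns it into leukotrienes, and cytochrome P450 enzymes make epoxides that soluble epoxide hydrolase degrades. In the kidney prostaglandins act on renal blood flow, renin release and salt and water transport, and cyclooxygenase-2 is known from the macula densa, the thick ascending limb and medullary interstitial cells. Omega-3 fatty acids of fish oil compete with arachidonate as substrates of these enzymes, which array values of RNA do not measure.

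All values are log2 levels of a probe set, differences are log2 differences with the moderated standard error (SE) from limma, and a gene was called where the p-value adjusted over all 29214 probe sets was below 0.05. Levels of different probe sets are not on a shared scale and are not set against each other. Kidney markers were high on the arrays. The proximal tubule gene Slc34a1 lay at percentile 99.1 of all probe set means, the thick ascending limb gene Umod at 98.8 and the collecting duct gene Aqp2 at 97.8. The summed level of 15 proximal tubule markers was 17.1 on each fish oil array, against 15.4 to 15.6 on the necrotic arrays, 16.7 to 17.0 on the deficient corn oil arrays and 17.1 to 17.2 on the supplemented corn oil arrays. Whole kidney was measured, so fewer cells of a type and less RNA per cell cannot be told apart. All 10 genes lay above the 25th percentile of probe set means and 9 above the 50th, with Alox5 at percentile 47.2.

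Fish oil went with a lower level of the secreted phospholipase gene Pla2g2a in choline-deficient kidneys, and averaged over choline supply also with less Alox5 and more Ephx2. In choline-supplemented kidneys, fish against corn oil, 0 of the 10 genes were called by limma, where 0.185% of all probe sets were. At an unadjusted p below 0.05 the count was 3 of 10, against 12.4% of all probe sets. Without choline, deficient fish oil against deficient corn oil, 1 of 10 was called, Pla2g2a, where 1.74% of all probe sets were. With both choline levels averaged, 3 of 10 were called, against a background of 2.25%. Deficient fish oil kidneys against necrotic kidneys gave 6 of 10, 3 higher and 3 lower, where 19.7% of all probe sets were called. These comparisons share arrays and are not independent. The median difference of the 10 genes was −0.30 with choline, −0.18 without it and −0.27 averaged, beside medians over all probe sets of 0.03, 0.01 and 0.03.

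**Figure D1:**
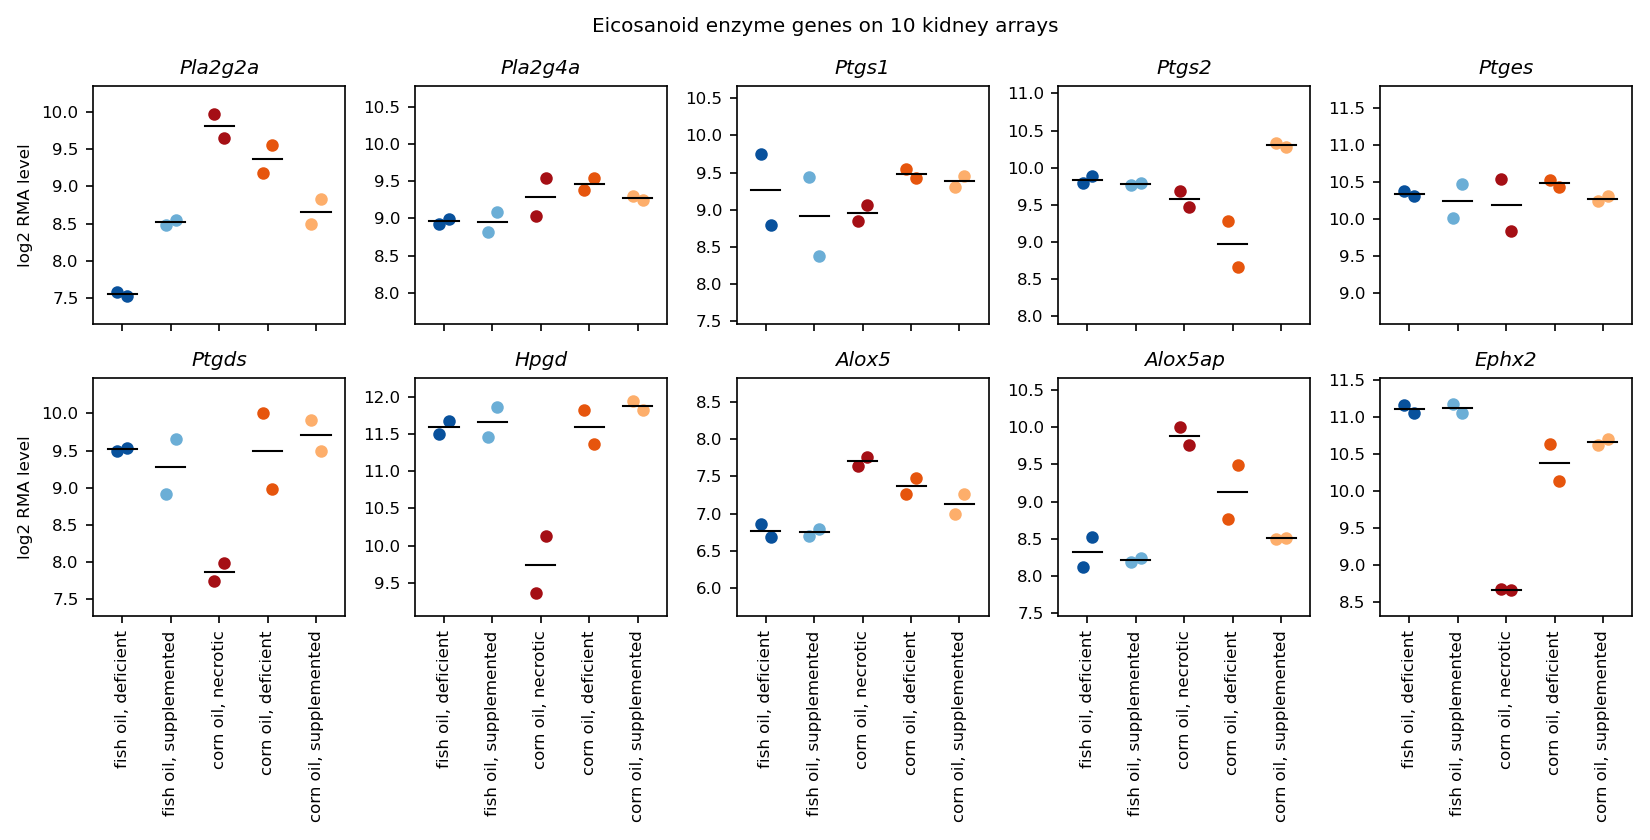
Log2 level (vertical axis) of each of the 10 genes on each array, 1 panel per gene, with groups side by side; each point is an array of 3 pooled animals and each line the mean of the 2 arrays of a group. Pla2g2a is lowest on the deficient fish oil arrays (7.53 and 7.58), Ephx2 is lowest on the necrotic arrays (8.67 and 8.68), and Ptgs2 is lowest on the deficient corn oil arrays (8.67 and 9.28).

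Pla2g2a encodes a secreted phospholipase A2 that is raised in many inflammatory states. Its level was 7.58 and 7.53 on the deficient fish oil arrays, 8.48 and 8.55 on the supplemented fish oil arrays, 9.98 and 9.65 on the necrotic arrays, 9.18 and 9.55 on the deficient corn oil arrays, and 8.49 and 8.83 on the supplemented corn oil arrays. The deficient fish oil arrays were the lowest of the 10, clear of all others, and the necrotic arrays the highest, while the supplemented fish oil and supplemented corn oil arrays overlapped. Deficient fish oil kidneys had 3.51-fold less Pla2g2a than deficient corn oil kidneys (−1.81 ± 0.18, adjusted p = 0.00252) and 4.79-fold less than necrotic kidneys (−2.26 ± 0.18, adjusted p = 0.000101). With only the 2 groups compared in the fit, the difference from deficient corn oil kidneys stayed −1.81 but had an adjusted p of 0.0583. In choline-supplemented kidneys the oil difference was −0.15 ± 0.18, with a 95% interval from −0.55 to 0.26 (adjusted p = 0.757). Averaged over choline supply it was −0.98 ± 0.12 (adjusted p = 0.00859), and Pla2g2a fell.

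Choline deficiency went with opposite signs of difference in Pla2g2a under the different oils. In fish oil kidneys, deficient minus supplemented was −0.96 ± 0.18, which was not called (adjusted p = 1.0, unadjusted p = 0.000463). In corn oil kidneys it was 0.70 ± 0.18, also not called (adjusted p = 0.119). The test of the difference itself, the oil difference without choline minus that with choline, gave −1.67 ± 0.25 (adjusted p = 0.0654) and was not called. It passed at 0.0475 after median centring, at 0.0418 and 0.0262 with dim probe sets filtered out, and at 0.0293 with a trended, robust prior. It did not pass after cyclic loess scaling or repeated quantile normalization. Nor did it pass with the replicate number as a block or with only the compared groups in the fit. With only the higher deficient corn oil array on that side, the difference was −1.85.

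Pla2g4a encodes the cytosolic phospholipase A2 that prefers arachidonate. It lay at 8.92 and 8.997 on the deficient fish oil arrays and 8.82 and 9.08 on the supplemented fish oil arrays, against 9.38 and 9.55 on the deficient corn oil arrays and 9.30 and 9.24 on the supplemented corn oil arrays. All 4 fish oil arrays lay below all 4 of these corn oil arrays. The averaged oil difference was −0.41 ± 0.12 and was not called (adjusted p = 0.161). The necrotic arrays, at 9.03 and 9.55, spanned the whole range of the other corn oil arrays, and the lower of them lay below the highest fish oil array. Of the 10 genes, 3 separated the 4 fish oil arrays from the 4 corn oil arrays outside the necrotic group without overlap, Alox5 and Pla2g4a below and Ephx2 above, and 8.55% of all probe sets did so too.

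Ptgs2, the inducible cyclooxygenase, was the gene that fell with choline deficiency under corn oil. It lay at 9.79 and 9.88 on the deficient fish oil arrays, 9.77 and 9.80 on the supplemented fish oil arrays, 9.68 and 9.47 on the necrotic arrays, 9.28 and 8.67 on the deficient corn oil arrays, and 10.33 and 10.28 on the supplemented corn oil arrays. The 4 fish oil arrays spanned 0.11 log2, between the supplemented corn oil arrays above them and all necrotic and deficient corn oil arrays below them. In deficient corn oil kidneys Ptgs2 was 2.52-fold lower than in supplemented corn oil kidneys (−1.33 ± 0.19, adjusted p = 0.0153), the 1 call among the 10 genes in that comparison, where 1.13% of all probe sets were called. Without the first or the second supplemented corn oil array the adjusted p was 0.136 and 0.13, and with only the 2 groups in the fit it was 0.122. In necrotic kidneys it was lower than in supplemented corn oil kidneys (−0.73 ± 0.19, adjusted p = 0.0245), a call that leaving out any 1 of those 4 arrays ended, with adjusted p from 0.0516 to 0.116.

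The oil difference of Ptgs2 had opposite signs by choline supply, and neither was called. It was 0.87 ± 0.19 without choline (adjusted p = 0.0617) and −0.52 ± 0.19 with choline (adjusted p = 0.327). The test of the difference between them gave 1.39 ± 0.26 (adjusted p = 0.129), so 0 of the 10 genes were called in this interaction, where 0.103% of all probe sets were, with 2 of 10 and 9.9% of all probe sets at an unadjusted p below 0.05. Without choline the Ptgs2 oil difference passed at 0.0428 and 0.0295 with dim probe sets filtered out, and at 0.0325 with a trended, robust prior. The 2 deficient corn oil arrays were 0.61 log2 apart in Ptgs2. With only the lower of them in the fit, the oil difference without choline was 1.17 and the interaction 1.69, so both sizes depend on that array. Of the 13 measured markers of the thick ascending limb and macula densa, 2 were called in the oil comparison without choline and 2 in choline deficiency under corn oil, Casr and the oxoglutarate receptor gene Oxgr1 in both. Casr, the calcium-sensing receptor, was 1.25 ± 0.18 higher in deficient fish oil than in deficient corn oil kidneys (adjusted p = 0.014) and lower in deficient than in supplemented corn oil kidneys (−1.40 ± 0.18, adjusted p = 0.0107). The summed level of the list was 15.1 on both deficient corn oil arrays, against 15.4 on both supplemented corn oil arrays. The defining macula densa gene Nos1, at percentile 40.5, averaged 6.92 in deficient and 6.52 in supplemented corn oil kidneys (0.40 ± 0.17, adjusted p = 0.311), and Ptger3, a prostaglandin E receptor on the same list, differed by 0.35 ± 0.14 (adjusted p = 0.306), both with the sign opposite to Casr and not called. The oil difference without choline was −0.03 ± 0.17 for Nos1 (adjusted p = 0.97) and −0.57 ± 0.14 for Ptger3 (adjusted p = 0.106). Their part in the Ptgs2 values was not tested.

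The windows of 250 bases before the start of Ptgs2 and Pla2g2a are shown because these are the 2 genes with the lowest unadjusted p in the interaction. The sequences are from RefSeq (GRCr8), chr13:64713813-64714062 and chr5:156359475-156359724, both on the plus strand, written 5′ to 3′ with motif matches in capitals.
Ptgs2: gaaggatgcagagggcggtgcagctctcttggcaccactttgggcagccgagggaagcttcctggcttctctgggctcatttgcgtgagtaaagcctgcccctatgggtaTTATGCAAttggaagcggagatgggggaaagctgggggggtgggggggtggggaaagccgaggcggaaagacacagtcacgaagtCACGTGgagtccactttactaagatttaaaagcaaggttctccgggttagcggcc
Pla2g2a: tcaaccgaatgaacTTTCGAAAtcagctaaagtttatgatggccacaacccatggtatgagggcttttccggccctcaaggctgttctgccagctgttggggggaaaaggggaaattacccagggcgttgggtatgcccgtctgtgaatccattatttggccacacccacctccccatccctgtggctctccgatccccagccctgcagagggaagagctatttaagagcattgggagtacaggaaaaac
Both strands were searched for 4 motifs that did not overlap here, where N is any base. They were the TATA box, written TATAAA, the E-box bound by basic helix-loop-helix factors, written CACGTG, a C/EBP-like motif, written TTNNGNAA, and an AP-1-like motif, written TGANTCA. The Ptgs2 window held an E-box 55 bases and a C/EBP-like match 140 bases before the start, and the Pla2g2a window held a C/EBP-like match 236 bases before it. Among 33469 rat promoter windows of this length, 12.9% held the TATA box, 5.59% the E-box, 37.2% the C/EBP-like and 6.34% the AP-1-like motif. A match is a stretch of letters and no measured site. In the same assembly Pla2g4a and Ptgs2 are neighbours on chromosome 13, 142 kb apart with no protein-coding gene listed between them.

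Ptgs1, the constitutive cyclooxygenase, was uneven within the fish oil groups. It lay at 9.75 and 8.79 on the deficient fish oil arrays and at 9.45 and 8.38 on the supplemented fish oil arrays, against 8.85 to 9.06 on the necrotic arrays and 9.31 to 9.55 on the other 4 corn oil arrays. In each fish oil group the second array was about 1 log2 below the first, and the averaged oil difference of −0.34 ± 0.26 was not called (adjusted p = 0.595). The summed level of 9 adipocyte markers differed between the same arrays. It was 12.5 and 11.7 on the first and second deficient fish oil arrays and 12.6 and 12.0 on the first and second supplemented fish oil arrays. On the necrotic arrays it was 11.6 and 11.1, where Ptgs1 went the other way, at 8.85 and 9.06. The deficient corn oil arrays had 12.4 and 12.0 (Ptgs1 9.55 and 9.42), the supplemented corn oil arrays 12.1 and 12.5 (Ptgs1 9.31 and 9.45). Within the list, Ucp1, Cidec, Lipe and Pparg had their lowest group mean in necrotic kidneys, and Lep, Retn and Cfd their highest there. The part of the adipocyte markers in the Ptgs1 values was not tested.

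Ptges, the inducible microsomal prostaglandin E synthase, was not called in any of the 10 comparisons. Its lowest and highest arrays, at 9.84 and 10.54, both belonged to the necrotic group, and the oil difference averaged over choline supply was −0.09 ± 0.16, with a 95% interval from −0.45 to 0.28. Ptgds, the lipocalin-type prostaglandin D synthase, lay at 9.50 and 9.53 on the deficient fish oil arrays and 8.92 and 9.65 on the supplemented fish oil arrays. It lay at 7.75 and 7.99 on the necrotic arrays, against 10.004 and 8.98 on the deficient corn oil arrays and 9.91 and 9.50 on the supplemented corn oil arrays. The necrotic arrays were clear of all others on the low side, and the other 8 arrays overlapped between groups. Deficient fish oil kidneys had 3.13-fold more Ptgds than necrotic kidneys (1.65 ± 0.34, adjusted p = 0.00964), with an adjusted p of 0.0575 without the first necrotic array and 0.053 without the second deficient fish oil array.

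Hpgd, the dehydrogenase that begins the breakdown of prostaglandins, followed the same division. It lay at 11.51 and 11.68 on the deficient fish oil arrays and 11.46 and 11.86 on the supplemented fish oil arrays. It lay at 9.37 and 10.12 on the necrotic arrays, against 11.82 and 11.36 on the deficient corn oil arrays and 11.94 and 11.82 on the supplemented corn oil arrays. Only the necrotic arrays stood apart, more than 1 log2 below the next array. Hpgd was 3.6-fold higher in deficient fish oil than in necrotic kidneys (1.85 ± 0.26, adjusted p = 0.00148). The oil difference outside the necrotic group was 0.00 ± 0.26 without choline and −0.22 ± 0.26 with it, with 95% intervals from −0.59 to 0.59 and from −0.81 to 0.37.

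Both leukotriene genes were highest on the necrotic arrays and had their lowest group means under fish oil. Alox5 encodes 5-lipoxygenase, and Alox5ap the membrane protein that presents arachidonate to it, and both are known from myeloid cells. Alox5 lay at 6.86 and 6.68 on the deficient fish oil arrays and 6.70 and 6.80 on the supplemented fish oil arrays. It lay at 7.64 and 7.76 on the necrotic arrays, against 7.26 and 7.47 on the deficient corn oil arrays and 6.997 and 7.26 on the supplemented corn oil arrays. Every fish oil array was below every corn oil array, and the necrotic arrays were the highest.

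Averaged over choline supply, Alox5 was 1.40-fold lower under fish oil than under corn oil (−0.49 ± 0.10, adjusted p = 0.0422). The call ended after median centring (adjusted p = 0.053), with only the 4 groups in the fit (0.0556) and without any 1 of 7 of the 8 arrays, all but the first deficient corn oil array (0.0821 to 0.174). The oil difference was −0.60 ± 0.14 without choline (adjusted p = 0.08) and −0.38 ± 0.14 with it (adjusted p = 0.338), neither of them called, and −0.93 ± 0.14 against necrotic kidneys (adjusted p = 0.00188).

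Alox5ap lay at 8.12 and 8.53 on the deficient fish oil arrays and 8.19 and 8.24 on the supplemented fish oil arrays. It lay at 10.002 and 9.77 on the necrotic arrays, against 8.77 and 9.49 on the deficient corn oil arrays and 8.49 and 8.51 on the supplemented corn oil arrays. The necrotic arrays were the highest, and the fish oil arrays overlapped the supplemented corn oil arrays only at the second deficient fish oil array. Deficient fish oil kidneys had 2.95-fold less Alox5ap than necrotic kidneys (−1.56 ± 0.23, adjusted p = 0.00181). Against deficient corn oil kidneys the difference was −0.80 ± 0.23 and not called (adjusted p = 0.16). The 2 deficient corn oil arrays were 0.72 log2 apart, and against the higher of them alone the difference was −1.16.

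The macrophage list had 13 of 15 markers measured, from percentile 35.7 for Itgam to 99.0 for Cd74. Its summed level was 13.6 to 13.8 on the deficient fish oil arrays, 13.8 to 13.9 on the supplemented fish oil arrays, 14.7 to 14.8 on the necrotic arrays, 14.5 to 14.7 on the deficient corn oil arrays and 14.1 to 14.2 on the supplemented corn oil arrays. Most of that sum comes from Cd74 and Lyz2. Cd74 averaged 12.8 in deficient and 13.10 in supplemented fish oil kidneys. It averaged 12.69 in necrotic, 13.48 in deficient corn oil and 13.52 in supplemented corn oil kidneys. Lyz2 averaged 13.09 in necrotic and 12.76 in deficient corn oil kidneys, and 11.63 to 11.71 in the other groups. Of the 13, 8 fell and 0 rose in deficient fish oil against deficient corn oil kidneys, among them Cd14 (−1.77 ± 0.15, adjusted p = 0.00158) and the lysosomal glycoprotein gene Cd68 (−1.47 ± 0.20, adjusted p = 0.0118). With choline present, 0 of 13 were called by limma between the oils and 5 had an unadjusted p below 0.05. The neutrophil list, with 10 of 12 measured, summed to 9.26 to 9.59 on the fish oil arrays, 10.5 to 11.05 on the necrotic arrays and 9.62 to 10.004 on the other corn oil arrays, and its gene S100a8 lay at percentile 6.5. With choline, 0 of these 10 were called by limma between the oils, and their median difference was −0.02. Its gene Mpo averaged 7.33 in supplemented fish oil and 8.30 in supplemented corn oil kidneys. Without choline, 2 of the 10 fell and 0 rose under fish oil. The part of these cells in the Alox5, Alox5ap and Pla2g2a values was not tested.

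**Figure D2:**
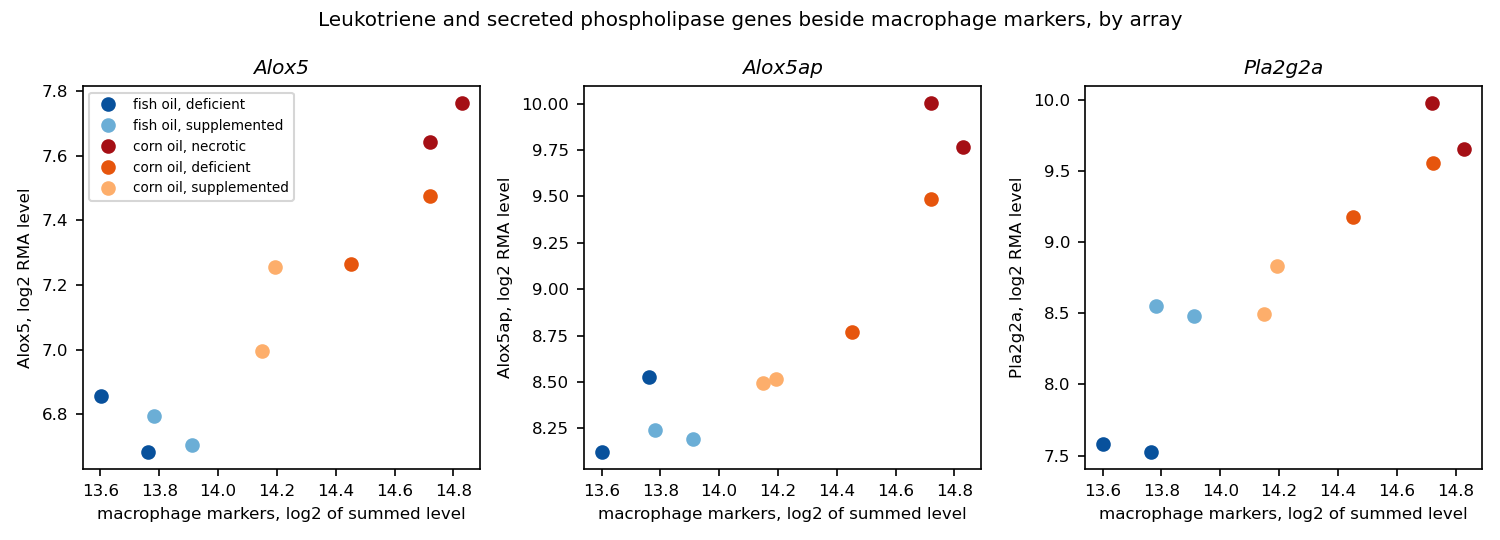
Log2 level of Alox5, Alox5ap and Pla2g2a (vertical axes) against the log2 summed level of 13 macrophage markers (horizontal axis), 1 point per array, coloured by group. The 4 fish oil arrays lie between 13.6 and 13.9 on the marker axis and the necrotic arrays between 14.7 and 14.8, and the deficient fish oil arrays have the lowest Pla2g2a (7.53 and 7.58). Most of the marker sum comes from Cd74 and Lyz2.

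Ephx2 encodes soluble epoxide hydrolase, which degrades the epoxides that cytochrome P450 enzymes make from arachidonate, and its expression responds to activators of the fatty acid receptor PPAR alpha in rodents. It lay at 11.15 and 11.05 on the deficient fish oil arrays and 11.18 and 11.05 on the supplemented fish oil arrays. It lay at 8.68 and 8.67 on the necrotic arrays, against 10.63 and 10.13 on the deficient corn oil arrays and 10.61 and 10.70 on the supplemented corn oil arrays. All 4 fish oil arrays were above all corn oil arrays, and the necrotic arrays were the lowest by more than 1 log2. Averaged over choline supply, Ephx2 was 1.5-fold higher under fish oil than under corn oil (0.59 ± 0.11, adjusted p = 0.0383). That call ended after median centring (adjusted p = 0.0502), with only the 4 groups in the fit (0.0558) and without any 1 of 6 of the 8 arrays, all but the deficient corn oil arrays (0.0902 to 0.152).

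In choline-deficient kidneys outside the necrotic group Ephx2 was 0.72 ± 0.16 higher with fish than with corn oil and was not called (adjusted p = 0.0745). This difference passed at 0.0338 with probe sets below the 50th percentile left out, and at 0.0382 with a trended, robust prior. The 2 deficient corn oil arrays were 0.50 log2 apart, and against the lower of them alone the difference was 0.97. With choline the difference was 0.46 ± 0.16 (adjusted p = 0.326). Against necrotic kidneys Ephx2 was 5.38-fold higher in deficient fish oil kidneys (2.43 ± 0.16, adjusted p = 5.28e-05), the largest difference of the 10 genes in any comparison made here.

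**Figure D3:**
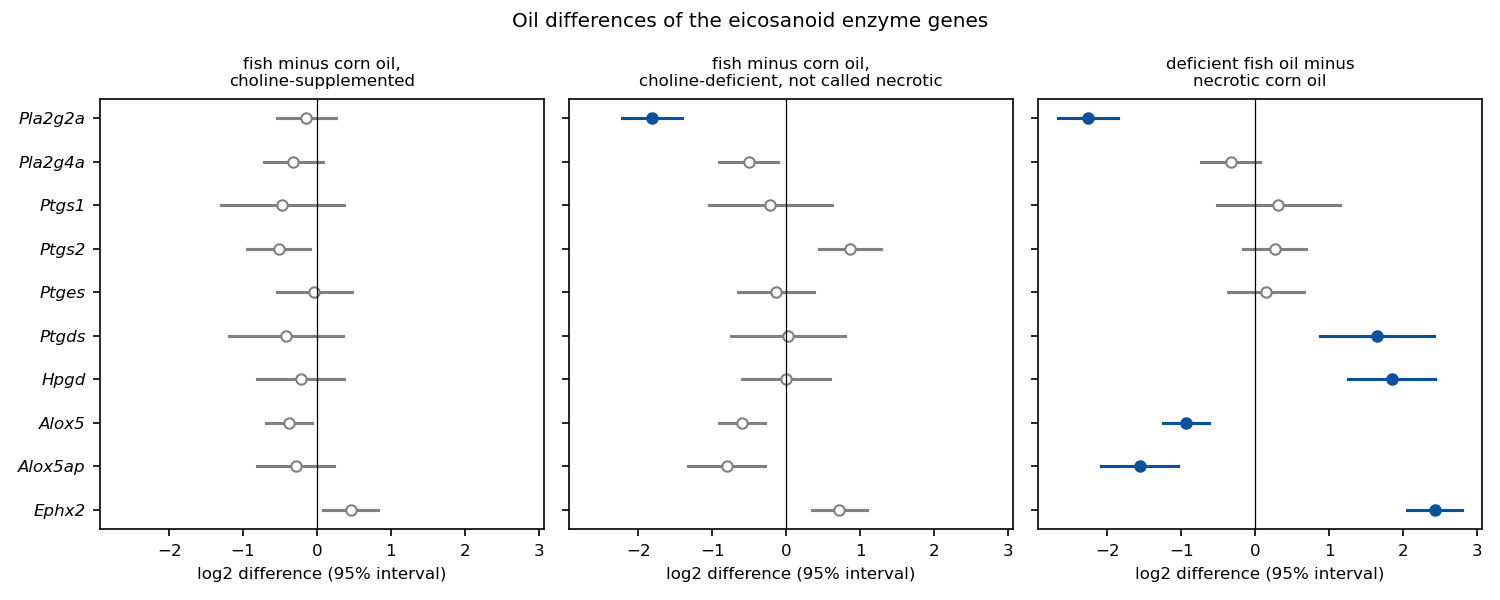
Log2 difference, fish oil minus corn oil (horizontal axis), for each of the 10 genes in the choline-supplemented and choline-deficient comparisons and in deficient fish oil against necrotic kidneys; bars are 95% intervals of limma and filled points have an adjusted p below 0.05. Pla2g2a is filled without choline (−1.81) and against necrotic kidneys (−2.26), and with choline no gene is filled.

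The necrotic arrays were the lowest of all in Ephx2, Hpgd and Ptgds, and the highest of all in Alox5ap, Alox5 and Pla2g2a. Against supplemented corn oil kidneys, necrotic kidneys had 7 of the 10 genes called, where 20.9% of all probe sets were. Ephx2 fell by 1.98 ± 0.16 (adjusted p = 0.000135), Hpgd by 2.14 ± 0.26 (adjusted p = 0.000805), Ptgds by 1.84 ± 0.34 (adjusted p = 0.00589) and Ptgs2 as given above. Alox5ap rose by 1.38 ± 0.23 (adjusted p = 0.00349), Pla2g2a by 1.15 ± 0.18 (adjusted p = 0.00237) and Alox5 by 0.58 ± 0.14 (adjusted p = 0.019). The Alox5 call ended after cyclic loess scaling (adjusted p = 0.0501), without the second necrotic array (0.0837) and without the first supplemented corn oil array (0.138). Among the proximal tubule markers 13 of 15 fell and 0 rose in the same comparison, and among the macrophage markers 10 of 13 rose and 1 fell. Of the collecting duct markers 10 of 13 fell and 0 rose, and of the medullary interstitial and fibroblast markers 7 of 11 rose and 1 fell. In deficient fish oil against necrotic kidneys, 13 of 15 proximal tubule and 9 of 13 collecting duct markers were higher and 0 lower, 9 of 11 interstitial and fibroblast markers were lower and 1 higher, and 11 of 13 macrophage markers were lower and 0 higher. Their part in these differences was not tested.

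Against deficient corn oil kidneys, which had the same diet, necrotic kidneys had 3 of the 10 genes called, where 9.79% of all probe sets were. Ephx2 was 3.27-fold lower (−1.71 ± 0.16, adjusted p = 0.000691), Hpgd 3.6-fold lower (−1.85 ± 0.26, adjusted p = 0.00384) and Ptgds 3.08-fold lower (−1.62 ± 0.34, adjusted p = 0.0207). The Ptgds call ended with only the 2 groups in the fit (adjusted p = 0.0728), without either necrotic array (0.0948 and 0.0707) and without the first deficient corn oil array (−1.11, adjusted p = 0.109). Ptgs2 was 0.60 ± 0.19 higher in necrotic kidneys and not called (adjusted p = 0.0804). Against the lower deficient corn oil array alone the difference was 0.91. In this comparison 13 of 15 proximal tubule and 9 of 13 collecting duct markers fell and 0 rose, and 8 of 11 interstitial and fibroblast markers rose and 1 fell. Of the macrophage markers 7 of 13 rose and 2 fell, and of the neutrophil markers 5 of 10 rose and 0 fell.

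Under fish oil choline deficiency gave no call. Of the 10 genes, 0 were called by limma, and 0% of all probe sets were, while 1 of 10 and 3.55% of all probe sets had an unadjusted p below 0.05. Apart from Pla2g2a the differences, deficient minus supplemented, ran from −0.07 for Hpgd to 0.36 for Ptgs1. Ptgs2 differed by 0.05 ± 0.19, with a 95% interval from −0.37 to 0.48. With the necrotic group as the choline-deficient corn oil side, the oil difference without choline minus that with choline was called for 5 of the 10 genes, where 8.72% of all probe sets were called. It was 1.97 ± 0.23 for Ephx2 (adjusted p = 0.00209), 2.07 ± 0.37 for Hpgd (adjusted p = 0.0119), 2.07 ± 0.48 for Ptgds (adjusted p = 0.033), −1.27 ± 0.32 for Alox5ap (adjusted p = 0.0461) and −2.11 ± 0.25 for Pla2g2a (adjusted p = 0.00219). Oil and the necrotic label both differ in that comparison and cannot be told apart.

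The call for Alox5ap in that test was lost without any 1 of the 8 arrays (adjusted p from 0.0632 to 0.142). The call for Ptgds was lost without any 1 of 7 of them (0.0649 to 0.115), the exception being the second supplemented fish oil array, and the call for Hpgd without the first supplemented corn oil array (0.0516).

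Other genes of the pathway were read from 7 lists. Beside the counts that follow, 19.7% of all probe sets were called in deficient fish oil against necrotic kidneys, and 12.4%, 12.6% and 14.3% had an unadjusted p below 0.05 between the oils with choline, without it and averaged. Release of arachidonate beyond the 2 phospholipases had 0 of 18 measured genes called by limma between the oils with choline, without it or averaged, with 3, 6 and 9 at an unadjusted p below 0.05, and 3 higher and 4 lower in deficient fish oil against necrotic kidneys. Pla2g7, the platelet-activating factor acetylhydrolase of plasma, was lower there (−2.59 ± 0.25) and lay at 6.46 and 6.57 on the deficient fish oil arrays, against 8.95 and 9.26 on the necrotic arrays. Of 11 other prostanoid synthases only Tbxas1, thromboxane synthase, was called in deficient fish oil against deficient corn oil kidneys (−1.14 ± 0.22, adjusted p = 0.0464). It lay at 6.81 and 6.73 on the deficient fish oil arrays, against 7.60 and 8.22 on the deficient corn oil arrays.

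Of 9 other lipoxygenases and leukotriene synthases, and of 19 cytochrome P450 hydroxylases and epoxygenases, 0 were called by limma between the oils outside the necrotic group, with 1 and 6 at an unadjusted p below 0.05 with choline and 0 and 4 without it. Against necrotic kidneys, deficient fish oil kidneys had 4 of the 19 P450 genes higher and 1 lower, a share near the 19.7% of all probe sets. Cyp4f1 was 2.64 ± 0.17 higher and Cyp4a1, an omega-hydroxylase of fatty acids, 2.32 ± 0.29 higher. Cyp2c23, the main arachidonate epoxygenase of rat kidney, was 1.54 ± 0.11 higher in the same comparison, and outside the necrotic group its oil difference was 0.20 ± 0.11 without choline and 0.12 ± 0.11 with it.

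Among 17 other measured genes of inactivation and transport, Abcc2 and Abcc4 were called between the oils at both choline levels. Abcc2, an organic anion export pump that carries leukotriene C4, lay at 11.79 and 12.05 on the deficient fish oil arrays and 12.24 and 12.37 on the supplemented fish oil arrays, against 10.28 and 10.45 on the deficient corn oil arrays and 9.78 and 9.94 on the supplemented corn oil arrays. The fish oil arrays were all above the corn oil arrays by more than 1 log2. Abcc2 rose by 2.44 ± 0.14 with choline (adjusted p = 0.000594) and by 1.56 ± 0.14 without it, and Abcc4, an exporter of prostaglandins, by 1.43 ± 0.14 (adjusted p = 0.0105) and 1.20 ± 0.14 (adjusted p = 0.00592). These were the 2 of 17 called at each choline level, and Ephx1, microsomal epoxide hydrolase, was called with them in the average (1.18 ± 0.19, adjusted p = 0.0193). Against necrotic kidneys 9 of the 17 were higher in deficient fish oil kidneys and 2 lower.

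Of 15 measured receptors, 1 was called between the oils without choline, Cmklr1, a receptor of chemerin and resolvin E1 known from macrophages (−0.90 ± 0.14, adjusted p = 0.0195). With choline 0 of 15 were called by limma and 4 had an unadjusted p below 0.05. Of 15 genes of fatty acid supply only Fads1, the delta-5 desaturase that forms arachidonate, was called in the average over choline supply (−1.11 ± 0.17, adjusted p = 0.0161). Fads1 lay at 10.82 and 10.43 on the deficient fish oil arrays and 10.72 and 10.33 on the supplemented fish oil arrays, against 12.13 and 11.44 on the deficient corn oil arrays and 11.61 and 11.55 on the supplemented corn oil arrays, without overlap. Fads2, the delta-6 desaturase, differed by 0.08 ± 0.12 in the same average.

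**Figure D4:**
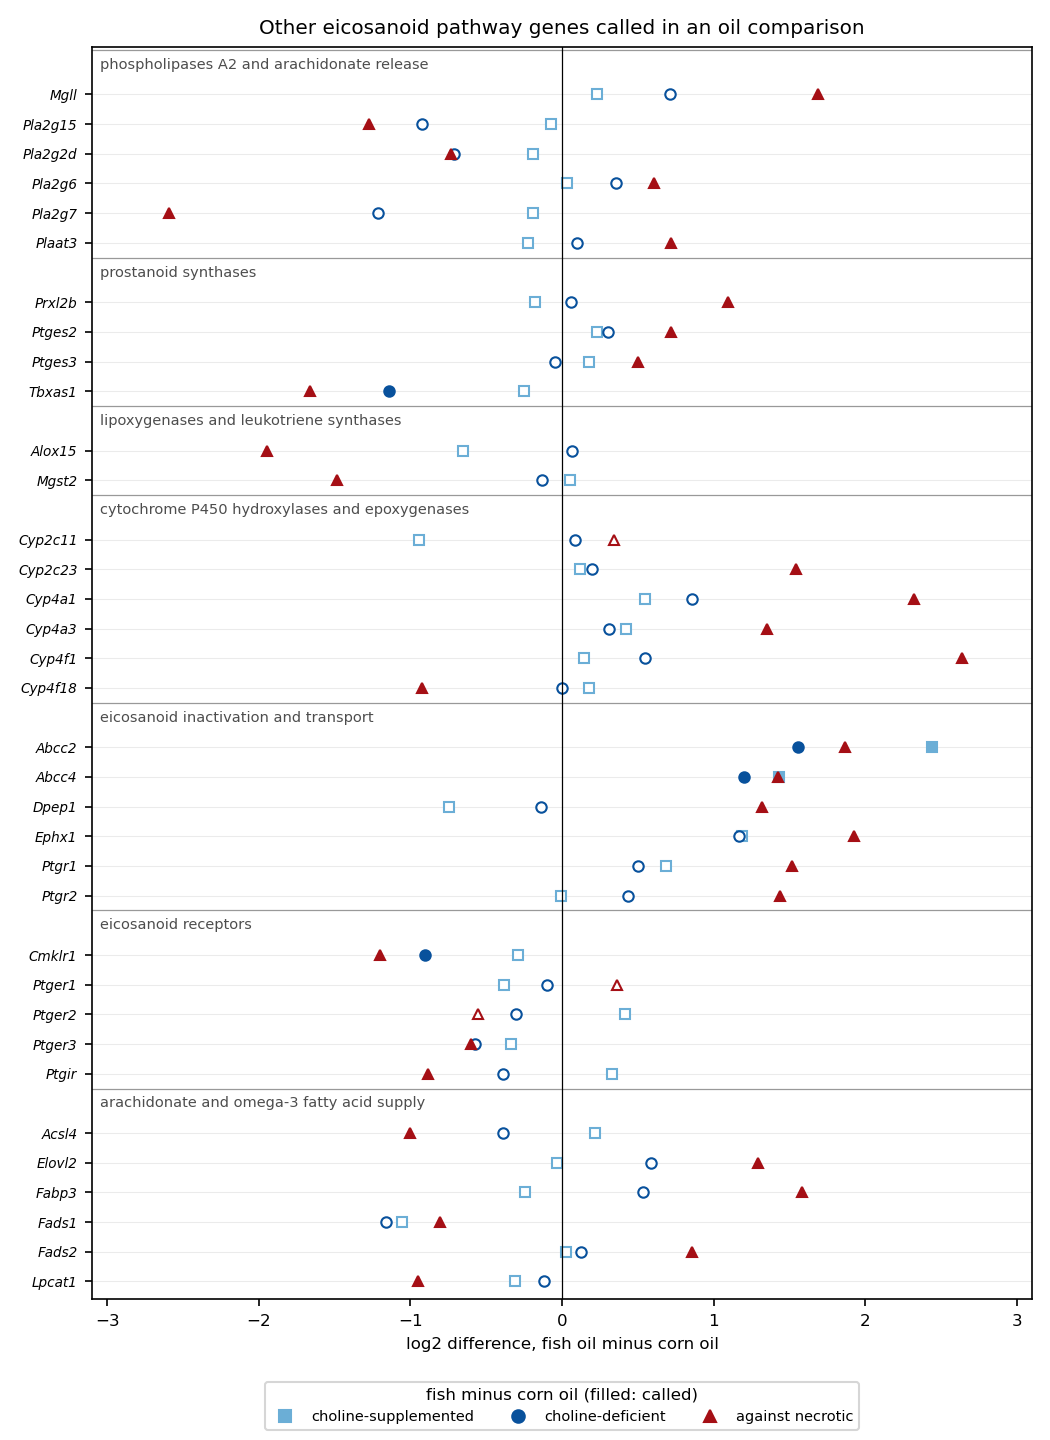
Log2 difference, fish oil minus corn oil (horizontal axis), of pathway genes outside the 10 that were called in an oil or interaction comparison, grouped by list; squares are choline-supplemented, circles choline-deficient outside the necrotic group, triangles against necrotic kidneys, and filled symbols have an adjusted p below 0.05. Abcc2 and Abcc4 are the genes filled in all 3 comparisons, between 1.20 and 2.44.

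For the 6 genes whose group means spanned 1 log2 or more, the nearest profiles over the 10 arrays were found by the root mean square difference of centred log2 levels. Alox5ap was nearest to Efhd2 (0.09), Axl (0.11) and Zdhhc18 (0.13). Hpgd was nearest to Ces1f (0.12), Slc15a2 (0.16) and Fam81a (0.17), and Ephx2 to Slc27a2 (0.13), Hepacam2 (0.13) and Sord (0.14). Ptgds was nearest to Slc22a7 (0.21), Prss53 (0.22) and Ethe1 (0.23). The nearest profiles of Pla2g2a were more distant, with Npy at 0.24, F2rl2 at 0.30 and Aldh18a1 at 0.31. Those of Ptgs2 were Or6c35d at 0.21, with group means of only 2.28 to 3.18, Masp1 at 0.24 and Tmem79 at 0.24.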

How the data were processed

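Kidney RNA from 10 arrays was used, 2 pools of 3 animals in each of 5 groups, read from the sample labels. The values are log2 intensities per probe set, deposited by the authors after RMA per the submitters' processing notes; which RMA software ran, and on which probe set definition, is not given in the sources. They ran from 1.617 to 14.72, with array medians of 7.28 to 7.43, and were used without further scaling or filter. Their number limits the precision. RMA equalises the distribution of values between arrays, so a shift shared by most genes would be reduced.

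The platform annotation listed 15633 of the 29214 probe sets, and 15310 of these had 1 gene symbol and 323 several. A gene with several probe sets was read from the one with the highest mean. The RefSeq gene table (GRCr8) matched 15279 probe sets by Entrez number and changed 0 symbols. Promoter windows of 8 of the 10 genes were matched by Entrez number.

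All 5 groups were fitted together with limma 3.58.1 (lmFit and eBayes, R 4.3.3; 5 residual and 3.59 prior degrees of freedom). In all 10 contrasts, 2 of them interactions, were tested with Benjamini-Hochberg adjustment over all probe sets of a contrast at 0.05. The step was tested on simulated data. Tables and figures used pandas 2.3.3, numpy 2.4.6 and matplotlib 3.10.9 in Python 3.11.15. The 10 genes, the 7 pathway lists, the 9 cell type lists and the tests were chosen with earlier results of these data known. Besides the 10 genes, those named are pathway genes called in an oil comparison or interaction, at most the 6 largest per list and contrast, and the 3 nearest profiles of genes whose group means spanned 1 log2; markers and the lists' uncalled members were named after their values were seen. Summed levels of a list are log2 of the sum of linear values. Mast cell markers summed to 8.97 to 9.35, and adrenal gland markers to 9.74 to 10.2 over the 10 arrays. Collecting duct markers summed to 14.6 to 14.8 on the fish oil arrays, 13.5 to 14.0 on the necrotic arrays and 14.6 to 14.9 on the other corn oil arrays. Medullary interstitial and fibroblast markers summed to 13.3 to 13.7 on the fish oil arrays, 14.5 to 14.7 on the necrotic arrays and 13.8 to 14.0 on the other corn oil arrays. Alternatives were other scalings, filters on dim probe sets, a trended and robust prior, the replicate number as a block, fits of the compared groups alone and each array left out in turn.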

Additional observations from a re-analysis of the deposited data

Results flagged for a closer look

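With necrotic kidneys as the choline-deficient corn oil side, the oil difference without choline differed from that with choline, by the interaction term in limma, for 5 genes. The term, log2 on the scale of oil differences, was 1.97 for Ephx2, 2.07 for Hpgd, 2.07 for Ptgds, −1.27 for Alox5ap and −2.11 for Pla2g2a. For Ephx2, deficient fish oil minus necrotic kidneys was 2.43 and the oil difference with choline was 0.46. For Hpgd these were 1.85 and −0.22, for Ptgds 1.65 and −0.42, for Alox5ap −1.56 and −0.29, and for Pla2g2a −2.26 and −0.15. The necrotic group was set apart by its label, and 8.72% of all probe sets passed the same test. Deficient fish oil and necrotic kidneys differed in oil and in that label, which cannot be told apart here. With deficient corn oil kidneys in place of the necrotic ones, the term was 0.26 for Ephx2, 0.22 for Hpgd and 0.45 for Ptgds. For Alox5ap it was −0.51 and for Pla2g2a −1.67, and 0 of the 10 genes were called.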

How the results depend on the processing

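Of 26 called differences of the 10 genes, 15 were called under every alternative run and 0 changed sign under any; of 74 not called, 11 were called under some alternative. The planned mean over all probe sets of a gene gave no value, since each gene has 1 probe set. The number of genes of 10 called was as follows. The filter at the 50th percentile left Alox5 untested, so counts under it are of 9 genes. For the oil difference without choline, 1 became 2 and 3 with probe sets below the 25th and 50th percentile left out, 3 with a trended, robust prior, 0 with only the groups compared in the fit, and 1 to 4 with each array left out in turn. For the averaged oil difference, 3 became 1 after median centring, 1 with only the groups compared, and 1 to 4 with arrays left out. For choline deficiency under corn oil, 1 became 0 with only the groups compared, and 0 to 2 with arrays left out. For necrotic against deficient corn oil kidneys, 3 became 5 with the lower 50 percent of probe sets left out, and 2 to 4 with arrays left out. For the interaction, 0 became 1 after median centring, with either filter and with the trended, robust prior. With necrotic kidneys in it, Ptgs2 was called as well when only the groups compared were in the fit (0.78, adjusted p = 0.0239). Leaving out arrays changed the calls in both interactions.

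Over all probe sets, the 54 calls for oil with choline became 115, 118 and 124 under the filters at 25 and 50 percent and the trended, robust prior, 5 with only the groups compared, and 3 to 6 with arrays left out. The 507 without choline became 25 with only the groups compared and 87 to 691 with arrays left out, the 330 for choline deficiency under corn oil 542 with the filter at 50 percent, 540 with the trended, robust prior, 82 with only the groups compared and 32 to 714 with arrays left out. The 2860 for necrotic against deficient corn oil kidneys became 654 with only the groups compared and 1040 to 3125 with arrays left out. The 30 of the interaction became 61, 87 and 67 under the filters and the trended, robust prior, 11 with the replicate block, 14 with only the groups compared, and 0 to 90 with arrays left out. With arrays left out the 5763 of deficient fish oil against necrotic kidneys became 3324 to 4254, the 656 of the averaged oil difference 130 to 798, the 6098 of necrotic against supplemented corn oil kidneys 3003 to 4638, the 0 for choline deficiency under fish oil 0 to 2, and the 2548 of the interaction with necrotic kidneys 955 to 1847. A filter tests fewer probe sets, and a left-out array or a fit of fewer groups leaves fewer degrees of freedom, with the lone array of a group assumed to vary like the other groups; other causes were not tested.

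Median centring moved the median over all probe sets from −0.01 to 0.10 for deficient fish oil against necrotic kidneys and from 0.06 to −0.04 for necrotic against supplemented corn oil kidneys. The share of calls that were higher moved from 46.9% to 60.4% and from 49.0% to 36.2% in these comparisons, and from 56.2% to 67.1% in the interaction with necrotic kidneys. The labels do not say whether same-numbered arrays share a source. Correlations of their deviations from the group means ran from −0.173 to 0.136 over 10 pairs of groups, so the numbers were not treated as pairs. With the replicate block, the averaged Alox5 difference (adjusted p = 0.0522) and the Ptgds interaction with necrotic kidneys (adjusted p = 0.0505) were no longer called.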
